A study of Mus musculus with 12 samples.

Results

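Cdx1, Cdx2 and Cdx4 (the caudal homeobox genes), Tfap2a and Tfap2c (AP-2 genes), and Mesp1 and Mesp2 (basic helix-loop-helix genes of nascent mesoderm) were chosen by symbol, and all 7 were found among the 19680 genes listed. RNA was measured in CJ9 mouse embryonic stem cells, wild type (WT) or carrying the arid4b∆ genotype, after 5 days of direction towards endoderm or mesoderm. The 4 groups were WT endoderm, arid4b∆ endoderm, WT mesoderm and arid4b∆ mesoderm, each with 3 libraries. All groups share the cell line, the 5 days of direction and an rRNA-depleted total RNA library; the labels name no agent used for direction, no number of clones and no extent of the deletion. The labels do not state whether the 3 libraries within each group are separate cultures; p-values therefore reflect library-to-library spread alone, and that spread may be technical.

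Caudal proteins are homeodomain factors that act downstream of Wnt, FGF and retinoic acid signals at the posterior end of the embryo, where they help to set the expression of Hox genes. Cdx2 is also required for trophectoderm, the outer layer of the blastocyst. AP-2 proteins bind GC-rich palindromes as dimers: Tfap2a is known for surface ectoderm and neural crest, and Tfap2c for trophoblast and primordial germ cells. Mesp1 and Mesp2 are neighbouring genes switched on as cells leave the primitive streak, Mesp1 in the precursors of heart and vessels and Mesp2 at the forming border of somites.

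Without Rn45s, the ribosomal RNA precursor that took 79.7% to 82.4% of the counts, the libraries held 1949299 to 6678893 counts. Mir6236 and Lars2 took 49.7% to 69.5% of these, so the depth behind the other genes was smaller still. Levels are given in CPM, the counts of a gene scaled to those remaining counts of its library after TMM normalization, which evens out libraries whose counts a few genes dominate. A floor of 3 counts is worth 0.449 to 1.54 CPM (before TMM) depending on the library, so single-digit counts of these genes carry wide counting error. Endoderm markers summed to 142 to 221 CPM in the WT endoderm libraries and 6.60 to 13.9 CPM in those labelled arid4b∆ endoderm. Mesoderm markers summed to 160 to 376 CPM in WT mesoderm and 6.46 to 11.7 CPM in the libraries labelled arid4b∆ mesoderm, so the lineage in those labels is the direction given and not a marker state. The WT groups were not free of each other's markers. Mesoderm markers summed to 68.8 to 100 CPM in WT endoderm, and endoderm markers to 12.5 to 17.5 CPM in WT mesoderm. Arid4b itself measured 41.0 ± 3.97 CPM in WT endoderm, 46.2 ± 4.27 in arid4b∆ endoderm, 42.0 ± 4.77 in WT mesoderm and 44.6 ± 2.96 in arid4b∆ mesoderm (SD, n = 3 each). A count over the whole gene is not lower in the libraries labelled arid4b∆ and does not check that label, since reads outside a deleted part still count.

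Promoter sequence from RefSeq (GRCm38.p6, the mm10 build named in the submitters' processing notes) was matched for 5 of the 7 genes. The 250 bases before a start site are shown for Cdx2, Mesp1, Mesp2 and the first of 2 listed starts of Tfap2a, because the results turn on these genes and their windows can be set against letters that Wnt, T-box, caudal and AP-2 factors are known to bind. All are written 5′ to 3′ on the strand of the gene. They lie at chr5:147307250-147307499 (minus strand, Cdx2), chr7:79793591-79793840 (minus, Mesp1), chr7:79810477-79810726 (plus, Mesp2) and chr13:40734921-40735170 (minus, Tfap2a). Capitals mark a match to a searched motif.
Cdx2: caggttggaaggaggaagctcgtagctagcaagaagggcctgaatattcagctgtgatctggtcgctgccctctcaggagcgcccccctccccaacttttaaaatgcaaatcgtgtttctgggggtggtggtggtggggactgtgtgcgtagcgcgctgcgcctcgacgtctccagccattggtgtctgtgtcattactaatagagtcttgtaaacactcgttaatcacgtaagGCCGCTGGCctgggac
Mesp1: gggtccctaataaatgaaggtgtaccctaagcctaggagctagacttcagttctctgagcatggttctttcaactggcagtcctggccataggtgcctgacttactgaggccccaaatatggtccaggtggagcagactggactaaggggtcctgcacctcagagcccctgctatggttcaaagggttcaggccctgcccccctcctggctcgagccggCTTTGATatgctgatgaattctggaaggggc
Mesp2: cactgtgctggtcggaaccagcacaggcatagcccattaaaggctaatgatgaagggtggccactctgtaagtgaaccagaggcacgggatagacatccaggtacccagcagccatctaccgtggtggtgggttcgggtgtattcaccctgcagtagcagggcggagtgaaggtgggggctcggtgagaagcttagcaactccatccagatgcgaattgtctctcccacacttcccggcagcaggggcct
Tfap2a: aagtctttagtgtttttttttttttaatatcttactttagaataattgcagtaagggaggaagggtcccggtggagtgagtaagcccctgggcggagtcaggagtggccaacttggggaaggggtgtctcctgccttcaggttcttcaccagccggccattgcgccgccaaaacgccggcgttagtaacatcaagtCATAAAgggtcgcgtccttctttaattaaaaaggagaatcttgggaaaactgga

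Of the 6 motifs searched on both strands in these 250 bases, 3 were found once each. The Mesp1 window held the TCF/LEF letters CTTTGAT, the end point of Wnt signalling, with the first base 31 bases before the start. Those letters stood in 3.21% of 32851 RefSeq promoter windows of the same length. The Cdx2 window held the AP-2 palindrome GCCNNNGGC 16 bases before the start, as did 13.7% of windows. The Tfap2a window held the caudal letters TTTATG on the reverse strand, read here as CATAAA, 54 bases before the start, as did 10.8% of windows. Mesp2, Cdx4 and the second start of Tfap2a had no match to TCF/LEF, T-box AGGTGTG, RBPJ GTGGGAA, caudal, AP-2 or FOXH1 TGTGNATT.

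Just past the start, in a window widened to 50 bases after it once the sequences had been seen, Mesp1 and Mesp2 each carried the T-box letters on the reverse strand. The sites are shown with 6 bases on each side, and capitals mark the match.
Mesp1 site: ccgcttCACACCTagggct
Mesp2 site: agaatcCACACCTctgcaa
The first base of the match lay at base 7 from the Mesp1 start and base 29 from the Mesp2 start, and 5.84% of the widened windows held these letters. In Mesp2 the match overlapped one to the FOXH1 letters beginning at base 25, which 3.60% of widened windows held. A match describes letters only, and no binding was measured here.

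**Figure D1:**
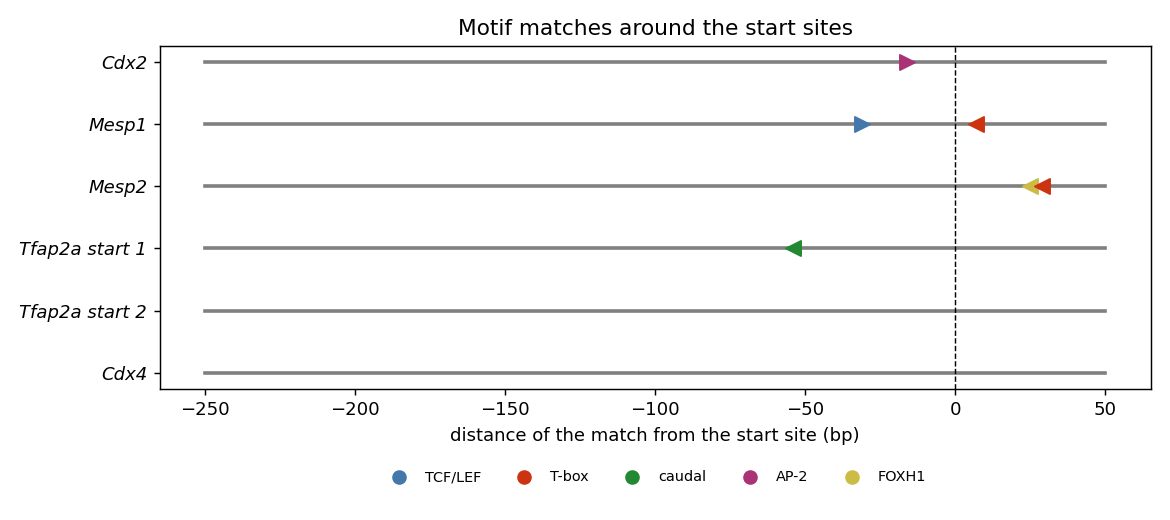
Motif matches in 300 bases around the start sites of 5 genes (Tfap2a has 2 starts); the horizontal axis is the distance of the first base of a match from the start in bp, and right- and left-pointing triangles mark the strand of the gene and the opposite strand. Mesp1 and Mesp2 share a T-box match just after the start, and Cdx4 and the second Tfap2a start have none.

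In the WT mesoderm libraries all 7 genes had counts, and in the libraries labelled arid4b∆ mesoderm 4 of them fell: Cdx2, Tfap2a, Tfap2c and Mesp1. These were the 4 that passed the filter on low counts and so entered edgeR's quasi-likelihood test, in which a gene was called at a Benjamini-Hochberg adjusted p under 0.05. Over all 11635 genes tested, 10.2% were called lower in that comparison. A gene that passes the filter mainly through its WT mesoderm counts can hardly be other than lower, so the count of 4 of 4 describes these genes and is not set against that share. Cdx1, Cdx4 and Mesp2 had too few counts to be tested there. In the endoderm direction Tfap2c and Mesp1 fell, 2 of the 4 genes tested, where 6.92% of all tested genes were called lower. Both passed the filter through WT libraries, while Cdx2 and Tfap2a, with 0 and 2 counts in WT endoderm, could hardly fall there. That count too is a description and is not set against the share. Less RNA per cell and fewer cells that express a gene cannot be told apart in these bulk libraries.

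**Figure D2:**
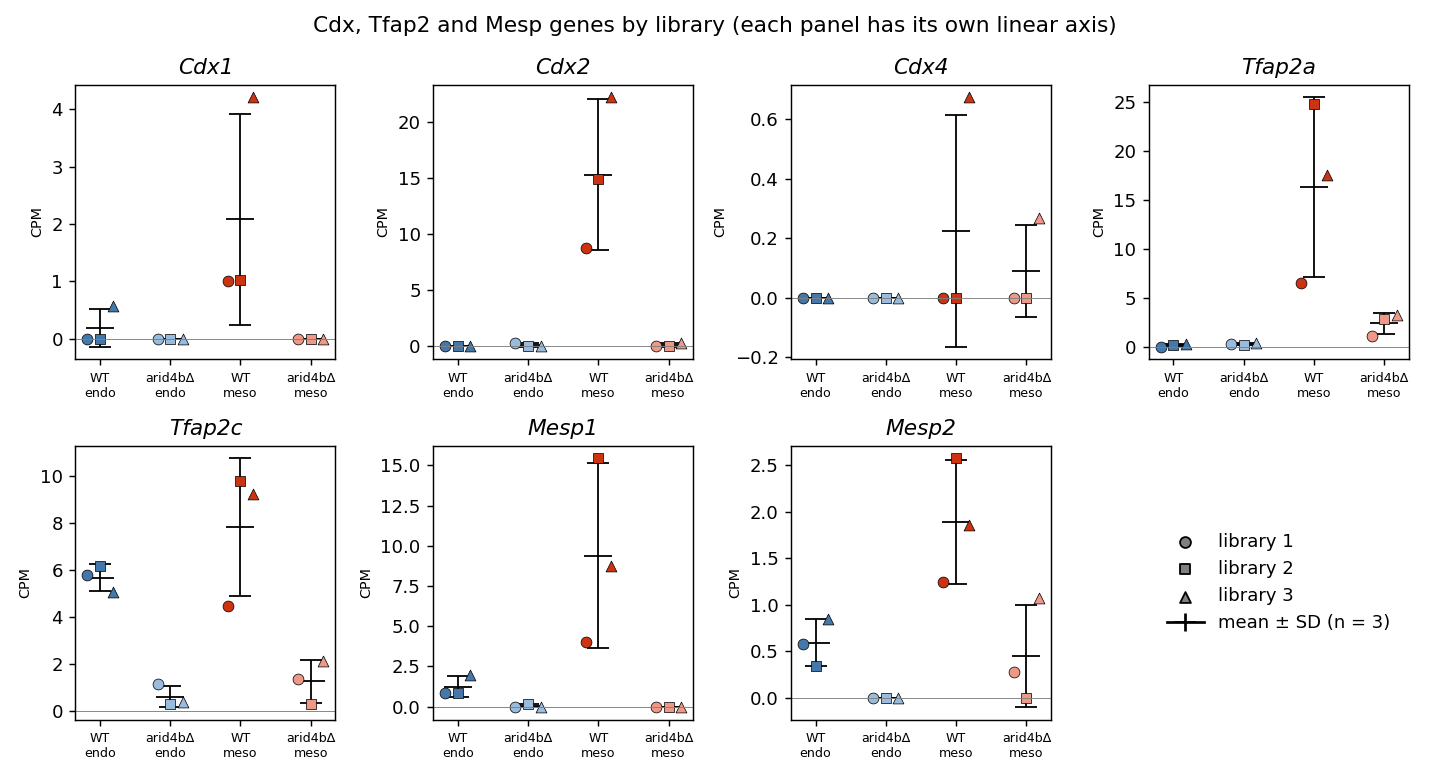
Level of each gene in CPM (vertical axis, linear, its own scale in each panel) in the 12 libraries, grouped by genotype and direction; symbols are libraries 1 to 3 and bars are the mean ± SD (n = 3). Cdx1, Cdx2, Tfap2a and Mesp1 are highest in WT mesoderm, while Tfap2c stands at like levels in both WT groups and lower in both arid4b∆ groups.

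Cdx2 (chr5:147300900-147307249, minus strand) was the caudal gene with the most RNA. The WT mesoderm libraries held 35, 29 and 132 counts of it, which is 8.73, 14.9 and 22.2 CPM (15.3 ± 6.75, SD, n = 3). Of the other 9 libraries, 7 had no count, and 1 library labelled arid4b∆ endoderm and 1 labelled arid4b∆ mesoderm had a single count each. The groups therefore did not overlap in the mesoderm direction, with every WT library far above every library labelled arid4b∆. The fitted log2 difference between genotypes in mesoderm was -6.97 ± 0.68 (SE; edgeR adjusted p = 6.26e-07), the 4th largest decrease among the genes tested. As a ratio of summed counts per library size Cdx2 was 174-fold lower, with a 95% counting interval of 30.9 to 6921. Between the WT groups it was at least 70.4-fold higher in mesoderm, taking 3 counts for the endoderm group that had none (edgeR adjusted p = 1.97e-07), and no other tested gene had a larger fitted increase. In endoderm no fold between genotypes can be given, at 1 count against 0.

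Cdx1 (chr18:61018862-61036199, minus strand), which is known to respond directly to Wnt and retinoic acid, had 4, 2 and 25 counts in WT mesoderm, or 0.998, 1.03 and 4.21 CPM. One WT endoderm library had 2 counts, and all 6 libraries labelled arid4b∆ had none. Of the 31 counts in WT mesoderm 25 came from library 3. Against the 3-count floor Cdx1 was at least 9.19-fold lower in the mesoderm libraries labelled arid4b∆, and it was 16.7-fold higher in WT mesoderm than in WT endoderm (counting interval 4.25 to 144). A two-sided exact permutation test gave p = 0.1 for both comparisons (n = 3 against 3), the smallest p this design allows.

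Cdx4 (chrX:103321398-103330224, plus strand), the X-linked caudal gene of the posterior embryo, had 4 counts in WT mesoderm library 3 and 1 count in library 3 labelled arid4b∆ mesoderm. The other 10 libraries had none, so no difference between groups was detectable at this depth. The caudal genes thus ranked Cdx2, Cdx1, Cdx4 in WT mesoderm, also per length of exons, at 6.77 ± 2.99, 1.19 ± 1.05 and 0.114 ± 0.198 CPM per kb (SD, n = 3).

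Tfap2a (chr13:40713802-40738238, minus strand) was close to absent from endoderm and present in WT mesoderm. It had 26, 48 and 104 counts in the WT mesoderm libraries, or 6.48, 24.7 and 17.5 CPM (16.2 ± 9.19, SD, n = 3). The libraries labelled arid4b∆ mesoderm kept 4, 9 and 12 counts, or 1.12, 2.77 and 3.20 CPM. All 3 lay below the lowest WT library and above every endoderm library of either genotype, which held 0 to 2 counts each. The fall in mesoderm was -2.69 ± 0.42 on the log2 scale (SE; edgeR adjusted p = 0.000102), and the ratio of counts was 6.33-fold (counting interval 4.15 to 10.1). In WT cells Tfap2a was higher in mesoderm than in endoderm by 6.38 ± 0.65 on the log2 scale (SE; edgeR adjusted p = 4.86e-07), the 6th largest increase of those tested. In the libraries labelled arid4b∆ the same difference was 2.95 ± 0.81 (SE; edgeR adjusted p = 0.0664) and missed the threshold, although the libraries did not overlap. Antisense transcript Gm26688 overlaps Tfap2a and had 18 counts in all libraries together. No source used here says whether counting used strand, so counts of Tfap2a could include antisense reads.

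Tfap2c (chr2:172545678-172558622, plus strand) differed from the other genes by its level in WT endoderm. WT endoderm libraries held 20, 36 and 18 counts, or 5.82, 6.17 and 5.09 CPM, and WT mesoderm libraries 18, 19 and 55 counts, or 4.49, 9.79 and 9.26 CPM. The ranges of the WT groups overlapped, and their difference of 0.42 ± 0.33 on the log2 scale was not called (SE; edgeR adjusted p = 0.52). The counts give a ratio of 1.34 with a counting interval of 0.975 to 1.84.

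Both groups labelled arid4b∆ were below both WT groups in Tfap2c. In endoderm they held 4, 2 and 2 counts, or 1.16, 0.339 and 0.404 CPM, a fall of 3.28 on the log2 scale (SE 0.50; edgeR adjusted p = 9.21e-05) and a ratio of 10.3 (counting interval 4.97 to 24.8). In mesoderm they held 5, 1 and 8 counts, or 1.40, 0.308 and 2.13 CPM, a log2 difference of -2.52 ± 0.44 (SE; edgeR adjusted p = 0.00032) and a ratio of 5.85 (counting interval 3.31 to 11.1). No library of either genotype overlapped with the other genotype within its direction. The difference between these genotype effects, 0.76 ± 0.75 on the log2 scale, was not called (SE; edgeR adjusted p = 0.815).

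The remaining AP-2 genes were near the floor in every group. Tfap2b had 2 counts in the endoderm libraries labelled arid4b∆ and none elsewhere, and Tfap2d had 2 counts in WT mesoderm and none elsewhere. Tfap2e, which did not pass the filter, had 4, 11, 8 and 5 counts in WT endoderm, arid4b∆ endoderm, WT mesoderm and arid4b∆ mesoderm. Of the genes that partner AP-2 proteins, Cited2, a co-activator, fell in mesoderm from 34.0 ± 7.0 to 15.3 ± 4.33 CPM (SD, n = 3; edgeR adjusted p = 0.000229). Its level in endoderm was 16.3 ± 1.40 CPM in WT and 10.4 ± 2.07 CPM in arid4b∆ (SD, n = 3; edgeR adjusted p = 0.055).

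Mesp1 (chr7:79792241-79793590, minus strand) was read in both WT groups and was close to absent in both groups labelled arid4b∆. The WT mesoderm libraries had 16, 30 and 52 counts, or 3.99, 15.5 and 8.75 CPM (9.40 ± 5.76, SD, n = 3), and the WT endoderm libraries 3, 5 and 7 counts, or 0.873, 0.857 and 1.98 CPM. Of the 6 libraries labelled arid4b∆ only 1, in the endoderm direction, had a count. Within WT cells Mesp1 was higher in mesoderm by 2.85 ± 0.50 on the log2 scale (SE; edgeR adjusted p = 0.000607), a ratio of 7.04 in counts (counting interval 4.06 to 13.1).

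Against 98 counts in WT mesoderm the arid4b∆ mesoderm group had none, so Mesp1 was at least 29.1-fold lower there (edgeR adjusted p = 1.22e-05). In endoderm, with 15 counts against 1, the ratio was 16.7-fold lower with a counting interval of 2.58 to 705, and the fitted difference was -3.60 ± 1.12 on the log2 scale (SE; edgeR adjusted p = 0.0399). That endoderm call was lost without any 1 of the 6 endoderm libraries, at adjusted p from 0.0529 without WT library 1 to 0.135 without WT library 3, and under limma-voom (0.0606).

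Mesp2 (chr7:79810727-79813431, plus strand) starts 17137 bp from the Mesp1 start and runs in the opposite direction, so the genes lie head to head. Its WT libraries were also the higher ones, at lower counts. It had 5, 5 and 11 counts in WT mesoderm and 2, 2 and 3 in WT endoderm, or 1.89 ± 0.665 and 0.591 ± 0.252 CPM (SD, n = 3). The libraries labelled arid4b∆ had 1, 0 and 4 counts in mesoderm and none in endoderm. Every WT library lay above every library labelled arid4b∆ within each direction. The ratio in mesoderm was 3.74-fold lower (counting interval 1.37 to 12.7), and in endoderm Mesp2 was at least 2.60-fold lower against the 3-count floor. Exact permutation tests, two-sided, gave p = 0.1 for both (n = 3 against 3), again the smallest possible.

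**Figure D3:**
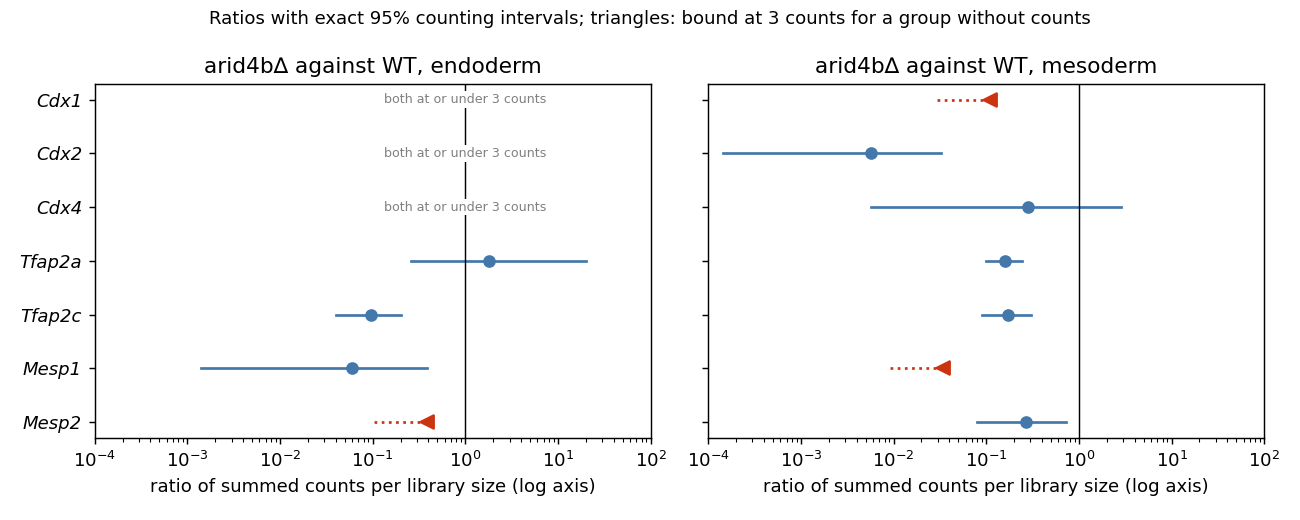
Ratio of summed counts per library size, arid4b∆ over WT (horizontal log axis), in endoderm (left) and mesoderm (right); points carry exact 95% counting intervals, which cover counting error only, and triangles are bounds with 3 counts in place of 0. In mesoderm the interval of Cdx4 crosses 1, and the intervals or bounds of the others lie below it. The bounds of Cdx1 and Mesp1 rest on no count in arid4b∆ mesoderm, and spread between libraries is not covered.

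Whether the genotype effect differed between the directions was tested as an interaction. None of the 4 tested genes was called by edgeR, where 1.4% of all tested genes were called in either direction. Cdx2 and Tfap2a had an unadjusted edgeR p under 0.05, a threshold at which the share of all tested genes was not counted. Tfap2a gave -3.43 ± 1.58 on the log2 scale (SE; unadjusted p = 0.0414, edgeR adjusted p = 0.447), from 4 against 2 counts in endoderm. Cdx2, at 1 against 0 counts in endoderm, had an edgeR adjusted p of 0.305, and DESeq2 called it at 0.0156. Mesp1 had an edgeR adjusted p of 0.653. With 0 counts of Cdx2 and 2 of Tfap2a in WT endoderm, a lower level with arid4b∆ was not detectable there at this depth.

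Between directions, 3 of the 4 tested genes (Cdx2, Tfap2a and Mesp1) were higher in WT mesoderm than in WT endoderm, where 5.43% of all tested genes were called higher. These 3 genes passed the filter wholly or mainly through WT mesoderm, so this count too is a description and is not set against that share. None of the 4 was called between directions in the arid4b∆ libraries by edgeR as designed, where 0.902% of all tested genes were called higher. Tfap2a had an unadjusted edgeR p under 0.05 in that comparison, where the share of all tested genes at that threshold was not counted either. DESeq2 called Tfap2a there (adjusted p = 0.0399) and limma-voom called none. With edgeR, Tfap2a was also called with no filter on low counts (adjusted p = 0.000308) and with replicate number as a block (adjusted p = 0.00217). The same held without WT mesoderm library 1 (edgeR adjusted p = 0.00914), WT mesoderm library 2 (0.0444) or arid4b∆ mesoderm library 1 (0.0415). The WT mesoderm libraries serve in both the genotype and the WT lineage comparison, so a high level in those libraries enters both.

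Per kb of exon, the WT mesoderm order was Mesp1 (7.37 ± 4.52 CPM per kb), Cdx2 (6.77 ± 2.99), Tfap2a (3.31 ± 1.87), Tfap2c (2.13 ± 0.793), Cdx1 (1.19 ± 1.05), Mesp2 (0.973 ± 0.342) and Cdx4 (0.114 ± 0.198; SD, n = 3 each). The library ranges of each pair of neighbours in that order overlapped except those of Mesp2 and Cdx4. In WT endoderm Tfap2c (1.55 ± 0.151 CPM per kb) and Mesp1 (0.969 ± 0.504) led with overlapping ranges, Mesp2 (0.304 ± 0.130) stood below both, and Cdx2 and Cdx4 had no counts. In arid4b∆ mesoderm the order began with the AP-2 genes, Tfap2a at 0.482 ± 0.224 and Tfap2c at 0.348 ± 0.250 CPM per kb, but the range of Mesp2 (0.231 ± 0.284; SD, n = 3 each) overlapped both. WT mesoderm library 1 was the lowest of its group in Cdx1, Cdx2, Tfap2a, Tfap2c, Mesp1 and Mesp2, and the calls of Cdx2, Tfap2a, Tfap2c and Mesp1 in mesoderm held without it.

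Across the 12 libraries the log2 CPM of Cdx2 and Tfap2a had a Pearson r of 0.89, of Cdx2 and Mesp1 0.87, and of Tfap2c and Mesp1 0.83. Tfap2a and Tfap2c, though of 1 family, had the lowest r of the 6 pairs, at 0.43. These values describe libraries that share group and depth. Of 10647 genes compared, those most like Cdx2 were Sprr2a1 and Sprr2a2 (r = 0.981 each) and Sprr2a3 (0.978), near-identical copies whose reads the counting may have shared or split. Those most like Tfap2a were Nlrp9b (r = 0.978), B3gnt7 (0.966) and Dusp4 (0.962). Tfap2c was most like H2afy (0.976), Mogat2 (0.964) and Prickle3 (0.963). Mesp1 was most like Dock11 (0.978), Phf15 (0.976) and Crot (0.972).

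Posterior and presomitic mesoderm genes, the setting in which Cdx and Mesp genes act, were lower with arid4b∆ in both directions. Of 10 such genes tested, 8 fell and none rose in mesoderm (median log2 difference -2.36, against 0.01 over all genes tested), and 8 fell and none rose in endoderm (median -3.08, against -0.0037). Over all 11635 genes tested, 10.2% were called lower in mesoderm and 6.92% in endoderm, and 673 genes were called higher in endoderm. These values stand beside the counts of each list that follows, and no share called higher in mesoderm is given for the rises there. A listed gene that passes the filter only through WT libraries can hardly be other than lower, so the list counts are descriptions. T fell in mesoderm from 219 ± 92.8 to 4.71 ± 2.65 CPM (SD, n = 3; edgeR adjusted p = 4.83e-10) and in endoderm from 46.3 ± 10.3 to 1.11 ± 0.397 CPM (adjusted p = 2.83e-08). Sp5, a Wnt target, fell in mesoderm from 15.7 ± 3.56 to 0.458 ± 0.549 CPM (adjusted p = 5.22e-08). Evx1, a homeobox gene of the posterior streak, fell from 32.1 ± 7.27 to 6.64 ± 3.94 CPM (adjusted p = 3.62e-06). Dll1, a Notch ligand of presomitic mesoderm, was not called in mesoderm, at 8.91 ± 1.92 and 4.86 ± 1.26 CPM (adjusted p = 0.0996).

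Several genes placed near Mesp2 and Cdx in that setting were too low to test. Msgn1, a presomitic factor, had 48 counts in WT mesoderm and none in any other group, at least 14.2-fold lower in arid4b∆ mesoderm. Wnt3a, the streak and tail bud ligand, had 28 counts in WT mesoderm, 1 in WT endoderm and none in the groups labelled arid4b∆, at least 8.30-fold lower in mesoderm. Tbx6 had 21 counts in WT mesoderm and 5 in arid4b∆ mesoderm, a ratio of 3.74 (counting interval 1.37 to 12.7).

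Signals and streak factors known to act before Cdx and Mesp fell more often than they rose. Their list shares T and Fgf8 with the posterior list and Eomes with the trophoblast list, so the counts of these lists are not separate. Of 19 tested, 11 fell and 3 rose in mesoderm (median -1.32), and 13 fell and 2 rose in endoderm (median -1.11). Wnt3 fell from 38.5 ± 5.06 to 12.1 ± 1.30 CPM in mesoderm (SD, n = 3; edgeR adjusted p = 8.79e-08) and from 20.4 ± 0.993 to 5.43 ± 0.484 CPM in endoderm (adjusted p = 6.59e-08). Eomes, a T-box factor that acts ahead of Mesp1, fell from 58.1 ± 4.33 to 16.7 ± 4.79 CPM in mesoderm (adjusted p = 7.54e-08) and from 119 ± 7.82 to 15.3 ± 3.10 CPM in endoderm (adjusted p = 6.3e-12). Unlike T and Mesp1, Eomes was lower in WT mesoderm than in WT endoderm (log2 difference -1.04 ± 0.12, SE; adjusted p = 4.04e-06).

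Genes of the cardiac and vascular mesoderm that follows Mesp1 moved the same way. Of 9 tested, 7 fell and 1, Lefty2, rose in mesoderm (median -2.12), and 8 fell and none rose in endoderm (median -3.33). The list shares Gata6 with the endoderm markers summed above, and Pdgfra and Kdr with the mesoderm markers, so these counts are not separate from those sums. Between the WT groups, 3 of the 9 (Gata6, Lefty2 and Myocd) were lower in mesoderm than in endoderm, 2 were higher and 4 were not called. Pdgfra, a growth factor receptor of early mesoderm, fell from 31.4 ± 7.65 to 4.26 ± 3.15 CPM in mesoderm (SD, n = 3; edgeR adjusted p = 5.47e-07). Kdr, the VEGF receptor of vascular precursors, had 99 counts in WT mesoderm and 1 in arid4b∆ mesoderm, a ratio of 88.1 (counting interval 15.4 to 3513; edgeR adjusted p = 1.11e-05).

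Hox genes, known targets of caudal factors, had few counts. None of the 18 listed genes of groups 5 to 10 passed the filter, and their summed level was 1.02 ± 0.944 CPM in WT endoderm, 2.93 ± 2.25 in arid4b∆ endoderm, 3.13 ± 2.08 in WT mesoderm and 5.99 ± 1.92 in arid4b∆ mesoderm (SD, n = 3). Their sum was not highest where Cdx2 was, but it rests on 39 counts in WT mesoderm and 64 in arid4b∆ mesoderm, and the difference was not tested. The 12 genes of groups 1 to 4 summed to 9.52 ± 3.41 CPM in WT mesoderm and to 1.78 ± 0.509 CPM in arid4b∆ mesoderm (SD, n = 3). Hoxb1, the one gene of these that was tested, had 43 counts in WT mesoderm, 1 in arid4b∆ mesoderm and none in endoderm, a ratio of 38.2 between genotypes (counting interval 6.51 to 1545; edgeR adjusted p = 0.00044). It passed the filter through WT mesoderm alone and could hardly be other than lower, so its call is a description.

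**Figure D4:**
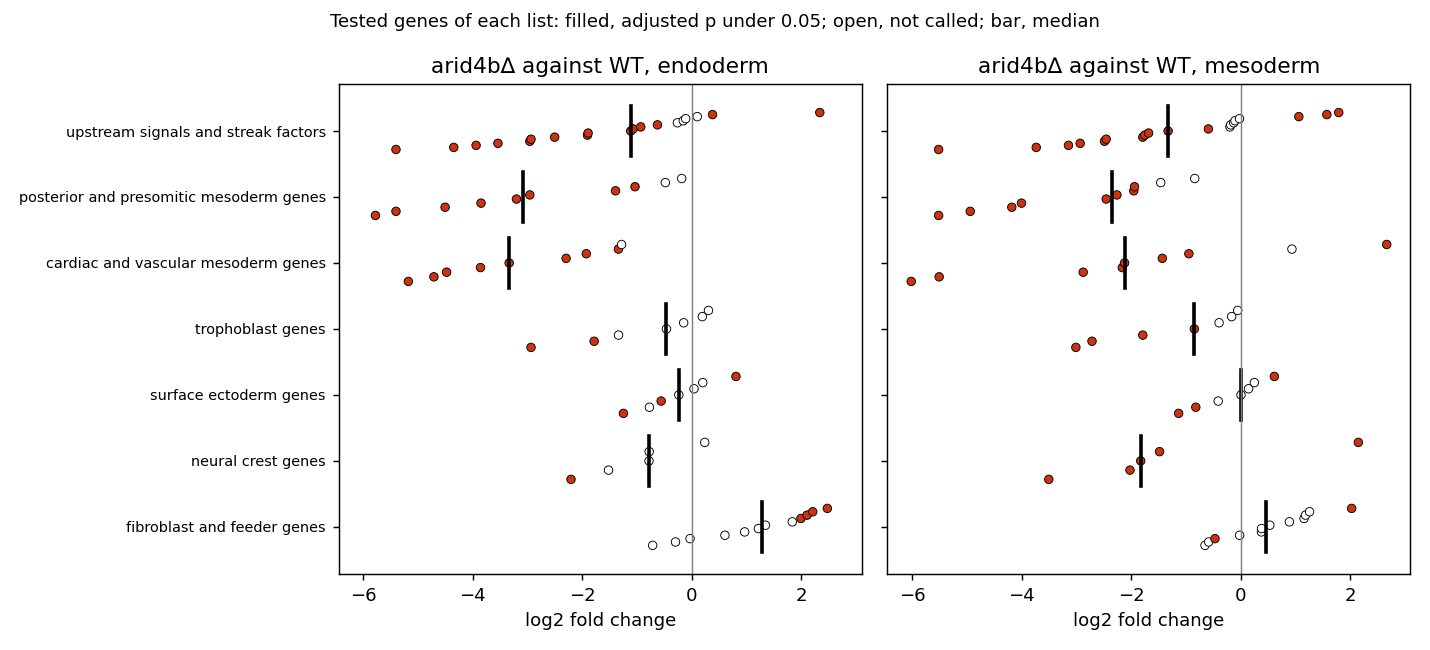
Log2 fold change (horizontal axis), arid4b∆ against WT, of the tested genes in 7 lists, in endoderm (left) and mesoderm (right); points are genes, filled where the edgeR adjusted p was under 0.05, and bars are list medians. The medians of the posterior, cardiac and upstream lists lie between -3.33 and -1.11, and those of the surface ectoderm list at -0.24 and 0.01.

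Markers of the other tissues in which Cdx2, Tfap2a and Tfap2c are known were examined beside them. Trophoblast markers (5 of 6 in the table) summed to 6.48 to 22.2 CPM in WT mesoderm, 1.68 to 2.93 in arid4b∆ mesoderm, 1.41 to 4.46 in WT endoderm and 0.809 to 1.45 in arid4b∆ endoderm. In WT endoderm, arid4b∆ endoderm, WT mesoderm and arid4b∆ mesoderm, Hand1 had 1, 2, 47 and 1 counts and Gata3 9, 7, 65 and 9, both highest where Cdx2 was. Ascl2 had 9, 2, 10 and 2 counts, Krt7 25, 4, 4 and 10, and Elf5, a defining trophoblast stem cell factor, 2, 0, 0 and 2. Hand1 is known in lateral and extraembryonic mesoderm as well as in trophoblast, and the part of such cells in the level of Cdx2 was not tested. Of 7 trophoblast genes tested, 4 fell in mesoderm (Eomes, Peg10, Gata3 and Id2) and 2 in endoderm (Eomes and Peg10), with none higher. Gata3, also a gene of early mesoderm and surface ectoderm, fell in mesoderm from 6.24 ± 2.63 to 0.850 ± 0.261 CPM (SD, n = 3; edgeR adjusted p = 0.00127). Gata3 passed the filter through WT mesoderm alone and could hardly be other than lower, so its call is a description.

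Surface ectoderm markers summed to 2.49 to 4.71 CPM in WT mesoderm and 2.15 to 3.63 in arid4b∆ mesoderm, and to 1.98 to 4.36 in WT endoderm and 1.45 to 2.22 in arid4b∆ endoderm. In the same order of groups as above, Dlx3 had 2, 2, 16 and 7 counts, highest where Tfap2a was, and Grhl3 had 39, 25, 29 and 19. Trp63 had 0, 1, 0 and 4 counts, Krt5 had 1 count and Krt14 at most 1 in any group. The part of surface ectoderm cells in the level of Tfap2a was not tested. Of 7 surface ectoderm genes tested, Krt8 and Krt18 fell and Grhl2 rose in both directions, and 4 were not called. Of 5 neural crest genes tested, Msx1, Msx2, Ets1 and Twist1 fell and Foxd3 rose in mesoderm (median -1.82), and Msx1 alone fell in endoderm (median -0.78). Msx2, a BMP target, fell in mesoderm from 13.2 ± 3.47 to 1.12 ± 0.205 CPM (SD, n = 3; edgeR adjusted p = 3.86e-07). In the same order of groups it had 11, 4, 158 and 12 counts. It passed the filter through WT mesoderm alone and could hardly be other than lower, so its call is a description.

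Fibroblast and feeder markers had a higher mean sum with arid4b∆ in both directions, with ranges that overlapped in mesoderm. All 8 were in the table, and their sum was 18.7 to 73.0 CPM in WT endoderm, 76.0 to 261 in arid4b∆ endoderm, 22.7 to 99.5 in WT mesoderm and 88.0 to 209 in arid4b∆ mesoderm. Of 12 fibroblast and feeder genes tested, 4 rose and 8 were not called in endoderm (median 1.28), and 1 rose, 1 fell and 10 were not called in mesoderm (median 0.46). The part of such cells in the levels of Cdx, Tfap2 and Mesp genes was not tested.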

How the data were processed

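The authors deposited 1 table of raw read counts per gene for 12 libraries (4 groups of 3). STAR, DESeq2 and the mm10 build are named in the submitters' processing notes; no source used here gives the counting program, strand setting or annotation. Rn45s and 26 genes whose count had turned into a calendar date, none of them described here, were left out of library sizes and tests. Total counts were 10351074 to 35660108 per library. Genes passing filterByExpr (minimum count 10) were fitted with edgeR 4.0.16 (R 4.3.3; TMM, quasi-likelihood, 4 group means, all 12 libraries), with Benjamini-Hochberg adjustment over all 11635 genes tested; the fit was tested on simulated data. CPM and ratios of counts use the TMM library sizes. Folds of genes with few counts are ratios of summed counts with exact binomial 95% intervals, or bounds with 3 counts in place of 0; both cover counting error only. DESeq2 1.42.0, limma-voom (limma 3.58.1), other scalings and filters, a replicate block and leave-one-out were alternatives. Named were the 7 genes whatever their result, up to 4 tested genes per list with the smallest adjusted p, a few streak genes and other AP-2 genes, and the 3 genes most alike by Pearson r of log2 CPM (mean of at least 2 CPM). Msgn1, Dll1, Twist1, Prdm14, Dppa3 and Nanos3 were named after their values were seen. The members and lists were chosen with earlier results of these data known. Exon lengths are from GENCODE, positions and promoters from RefSeq.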

Additional observations from a re-analysis of the deposited data

How the results depend on the processing

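No fold given here for the Cdx, Tfap2 and Mesp genes changed direction under the alternatives that tested it. Folds of other genes were not compared across the alternatives. Cdx2 between arid4b∆ directions, at 1 count in each group and given no fold, changed sign in 3 leave-one-out fits. The 4 calls in mesoderm between genotypes and the 3 calls between WT directions held under each alternative that tested them, as did Tfap2c in endoderm. The count of members called between genotypes in endoderm, 2, was 1 with a minimum count of 20, with limma-voom and with only the groups compared, and 1 to 2 in leave-one-out fits; Mesp1 was the call lost (adjusted p 0.00246 to 0.135). For the interaction it was 0, and 1 with DESeq2 (0 in every leave-one-out fit). Between directions in arid4b∆ it was 0, and 1 without a filter, with DESeq2 and with the replicate block (Tfap2a each time, adjusted p = 0.00217 with the block), and 0 to 1 in leave-one-out fits. Counts of all genes called were 1478 in endoderm (leave-one-out 836, without WT endoderm library 2, to 1704), 2222 in mesoderm (1472, without WT mesoderm library 3, to 2467), 1145 between WT directions (741, without WT mesoderm library 3, to 1391), 163 for the interaction (104, without arid4b∆ mesoderm library 2, to 354, without WT mesoderm library 1) and 216 between arid4b∆ directions (59, without arid4b∆ mesoderm library 3, to 315). Without a filter the last pair were 377 and 483, and with the replicate block 255 and 377. Deviations of same-numbered libraries correlated at -0.06 to 0.19. Their mean was 0.083, against -0.0415 for other numbers, and 10 of 12 libraries correlated best with their own number. That is a hint from the data and not the design, and no level for treating the numbers as pairs was set. Without a filter, Cdx1 was called in mesoderm between genotypes (adjusted p = 2.57e-05) and Mesp2 in endoderm (0.047) but not in mesoderm (0.111). The cause of these changes was not tested. Depth limits Cdx4 most, at 5 counts in all libraries.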

Other observations

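Genes of the germ cell and stem cell programmes in which Tfap2c is also known were described as values. Of 5 germ cell genes tested, Kit, Sox17 and Prdm1 fell and Dppa5a rose in endoderm (median log2 difference -2.70), and Kit and Prdm1 fell and Dppa5a rose in mesoderm (median -1.07). Sox17 is also among the endoderm markers, and Kit and Sox17 were called higher in WT endoderm than in WT mesoderm. Prdm14, Dppa3 and Nanos3 did not pass the filter. In WT endoderm, arid4b∆ endoderm, WT mesoderm and arid4b∆ mesoderm, Prdm14 had 2, 1, 14 and 0 counts. Dppa3 had 1, 3, 4 and 13 counts, and Nanos3 4, 0, 7 and 1. Prdm1, a repressor known for germ cell specification and also a gene of endoderm, fell in endoderm from 13.9 ± 4.15 to 2.20 ± 0.520 CPM (SD, n = 3; edgeR adjusted p = 3.07e-05). Kit, a receptor tyrosine kinase, fell in endoderm from 49.8 ± 9.34 to 6.83 ± 3.17 CPM (SD, n = 3; edgeR adjusted p = 2.44e-09). Of 10 pluripotency genes tested, 1 fell and 3 rose in endoderm and 2 fell and 3 rose in mesoderm. Over all 11635 genes tested, 805 were called lower and 673 higher in endoderm, and 1183 lower in mesoderm. The share called higher in mesoderm is not given, so the rises there stand without one. Utf1, a chromatin factor of pluripotent cells, rose in mesoderm from 14.3 ± 7.60 to 103 ± 9.18 CPM (SD, n = 3; edgeR adjusted p = 1.29e-09), and Nanog, a core pluripotency factor, fell in endoderm from 96.9 ± 8.90 to 42.3 ± 2.21 CPM (SD, n = 3; edgeR adjusted p = 1.18e-06).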
